A study of Homo sapiens with 2 samples.

Results

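The aminoacyl-tRNA synthetase genes were examined in the Flag-ETV4 ChIP-seq of A549 cells. The family was chosen with earlier results of these data known. Its 35 genes were found by name, and no measured value enters the rule. They are 35 of 20037 protein-coding genes in RefSeq, 19 of them for cytosolic and 16 for mitochondrial enzymes. The aspartyl-tRNA synthetase genes were not analysed here. The data were the peaks of 1 immunoprecipitate from A549-shETV4 cells, an established human non-small cell lung cancer line with shRNA against ETV4, after transfection with Flag-ETV4. The labels give 1 input library, also from A549, which enters only as the control level behind each peak. The bound protein is therefore a tagged, transfected factor in a knockdown background, in 1 line and 1 library, and the labels and methods name different Flag antibodies. No error between replicates and no test between conditions can be given. A list of binding sites does not measure expression, so neither the cell type nor the output of a synthetase gene could be checked.

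Aminoacyl-tRNA synthetases join each amino acid to its tRNA, the step that sets which amino acid a codon is read as. Human cells keep separate sets of nuclear genes for protein synthesis in the cytosol and in mitochondria, marked by the endings 1 and 2 in most names, while the glycyl and lysyl enzymes (GARS1, KARS1) serve both compartments from a single gene. EPRS1 carries the glutamyl and prolyl activities in one chain, and FARSA and FARSB are the subunits of the cytosolic phenylalanyl enzyme. Several cytosolic enzymes sit together in the multi-synthetase complex. Many cytosolic synthetase genes are known targets of ATF4, the transcription factor of the amino acid response, which binds a composite element with C/EBP partners. ETV4 belongs to the PEA3 group of ETS factors, which recognise a GGAA core, most often as CCGGAA at promoters.

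The promoter stretches below are shown because they hold, or lack, the motifs to which the peaks are compared. The first is the whole gap of 84 bases between HARS1 and HARS2, on the strand of HARS2. Each of the others covers 130 bases, from 110 before the RefSeq start site to the first 20 transcribed bases, on the strand of the gene and 5′ to 3′, from RefSeq on GRCh38.p14. Capitals mark CCGGAA on either strand and the amino acid response core TGATGNAA on either strand. The genes run from strong peaks to those with no peak at their start.
HARS1-HARS2 gap, chr5:140691371-140691454, plus strand: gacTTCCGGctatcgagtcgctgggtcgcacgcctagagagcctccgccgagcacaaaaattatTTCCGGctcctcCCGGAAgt
GARS1, chr7:30594625-30594754, plus strand: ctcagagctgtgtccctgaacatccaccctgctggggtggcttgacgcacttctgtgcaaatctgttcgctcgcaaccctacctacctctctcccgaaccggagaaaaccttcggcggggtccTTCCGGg
RARS1, chr5:168486361-168486490, plus strand: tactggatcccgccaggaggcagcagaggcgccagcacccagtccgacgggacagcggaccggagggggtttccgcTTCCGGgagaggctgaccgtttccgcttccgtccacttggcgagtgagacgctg
KARS1, chr16:75647646-75647775, minus strand: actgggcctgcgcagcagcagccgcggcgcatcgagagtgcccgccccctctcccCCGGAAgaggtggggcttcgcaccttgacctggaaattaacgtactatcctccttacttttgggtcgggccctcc
MARS2, chr2:197705259-197705388, plus strand: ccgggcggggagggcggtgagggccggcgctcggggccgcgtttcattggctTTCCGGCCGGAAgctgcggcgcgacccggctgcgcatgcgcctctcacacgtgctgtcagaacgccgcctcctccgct
WARS1, chr14:100376308-100376437, minus strand: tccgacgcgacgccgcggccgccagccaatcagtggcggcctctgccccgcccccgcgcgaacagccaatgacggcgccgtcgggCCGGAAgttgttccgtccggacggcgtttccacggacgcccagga
MARS1, chr12:57487958-57488087, plus strand: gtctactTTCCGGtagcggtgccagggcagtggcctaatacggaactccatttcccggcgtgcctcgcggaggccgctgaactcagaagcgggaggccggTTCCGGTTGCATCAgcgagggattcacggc
CARS1, chr11:3057404-3057533, minus strand: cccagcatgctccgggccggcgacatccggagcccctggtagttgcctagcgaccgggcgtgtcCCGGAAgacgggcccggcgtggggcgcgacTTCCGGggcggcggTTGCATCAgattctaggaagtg
IARS1, chr9:92293678-92293807, minus strand: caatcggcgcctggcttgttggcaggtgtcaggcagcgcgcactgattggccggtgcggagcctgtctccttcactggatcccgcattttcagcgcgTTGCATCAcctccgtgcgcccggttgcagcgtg
EPRS1, chr1:220046486-220046615, minus strand: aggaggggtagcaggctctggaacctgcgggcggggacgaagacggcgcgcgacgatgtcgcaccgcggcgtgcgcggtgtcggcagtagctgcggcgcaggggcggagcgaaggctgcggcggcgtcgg
AARS1, chr16:70289487-70289616, minus strand: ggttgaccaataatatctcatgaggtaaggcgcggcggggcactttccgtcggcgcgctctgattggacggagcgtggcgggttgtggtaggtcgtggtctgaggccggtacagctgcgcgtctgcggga

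Flag-ETV4 peaks lay within 1 kb of an outer gene end at 33 of the 35 synthetase genes, or 94.3%, whereas 62.1% of all protein-coding genes had such a peak. The share was similar in both compartments, 18 of 19 cytosolic and 15 of 16 mitochondrial genes. The genes without one were EPRS1 and FARS2. The compartments differed more in the height of their peaks. Fold enrichment over the control, taken at the strongest peak of each gene, had a median of 21.5 at the cytosolic genes (4.67 to 63.3) and of 10.5 at the mitochondrial genes (3.69 to 56.6). Over the 12444 protein-coding genes with a peak the median was 17.6. The quartiles were 15.1 and 36.5 at the cytosolic, 5.41 and 16.5 at the mitochondrial and 9.33 and 30.6 at all protein-coding genes, so that the overall median lay within the middle range of the cytosolic genes and just above that of the mitochondrial genes. Without GARS1 and KARS1, which serve both compartments, the cytosolic median was 19.1. The mitochondrial median was 7.0 when the peak nearest to an end was used and 6.76 without peaks at another protein-coding gene. The latter choice gave 17.9 at cytosolic genes, close to the 17.1 over all protein-coding genes with an unshared strongest peak. A fold over 10 was reached by 16 of 19 cytosolic genes and 8 of 16 mitochondrial genes, against 45.2% of all protein-coding genes. A fold over 20 was reached by 9 cytosolic and 2 mitochondrial genes, against 27.6%. The mitochondrial counts at these folds were thus near or below the background, and the cytosolic counts above it. The ranges of the compartments overlapped across most of their length, and genes are not replicates, so no test was made.

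**Figure D1:**
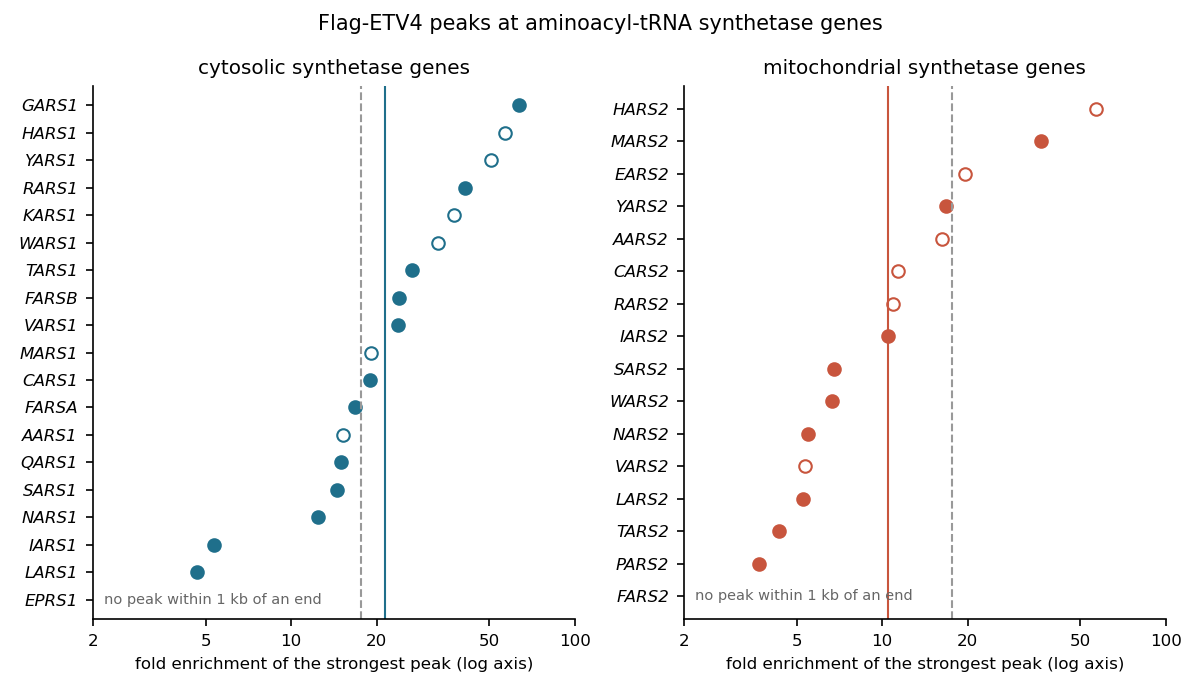
Fold enrichment of the strongest Flag-ETV4 peak within 1 kb of an end of each synthetase gene, on a log axis, for 19 cytosolic genes (left) and 16 mitochondrial genes (right). Open circles are peaks also within 1 kb of an end of another protein-coding gene, the solid line is the median of the compartment (21.5 and 10.5), and the dashed line is the median over all protein-coding genes with a peak (17.6).

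The compartments stood further apart in fragments than in control level. The median summit pileup was 62.5 fragments at the cytosolic and 26 fragments at the mitochondrial genes, while the median control level was 2.28 and 2.03 fragments. Over all protein-coding genes with a peak the median pileup was 54 fragments and the median control level 2.03. The control level of the strongest peaks lay between 1.28, the lowest value in the list, and 4.05 fragments over both compartments. Peak width differed likewise, with a median of 1148 bp at cytosolic genes, 616 bp at mitochondrial genes and 1062 bp over all protein-coding genes with a peak.

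**Figure D2:**
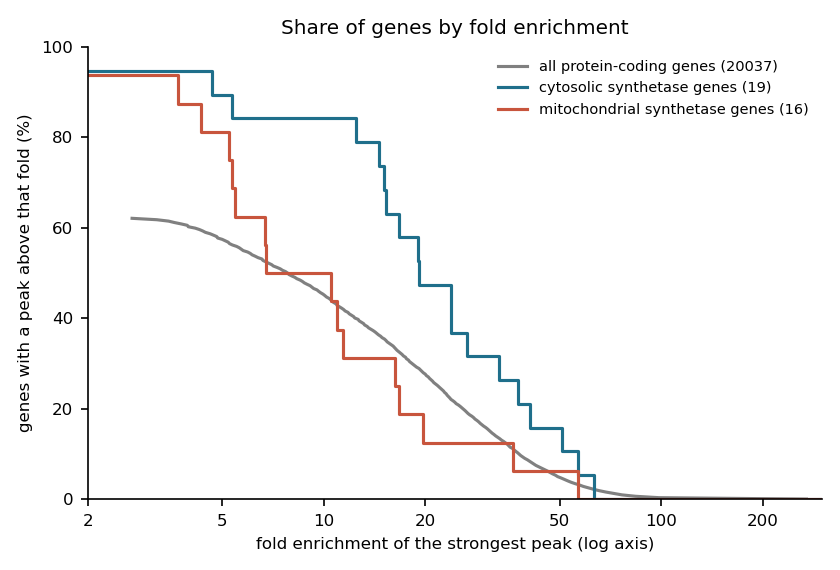
Percentage of genes (vertical axis) whose strongest peak within 1 kb of an end had a fold enrichment above the value on the horizontal log axis, for 19 cytosolic synthetase genes, 16 mitochondrial synthetase genes and 20037 protein-coding genes. At a fold of 10 the curves stand at 84.2%, 50% and 45.2%.

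The highest fold of all synthetase genes was found at GARS1, the glycyl-tRNA synthetase gene that supplies both compartments. Its peak, chr7:30594025-30596629, was also the widest of the strongest peaks at 2605 bp, and reached a fold of 63.3 and a −log10 q of 322.5. At the summit 212 fragments were piled up (184 to 242.5, exact Poisson 95% interval, as for all pileups here) over a control level of 2.36. The summit lay 504 bp inside the gene, downstream of the start site. Of all 54389 peaks, 96.5% had a lower or equal fold.

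The second highest fold was shared by a cytosolic and a mitochondrial gene. HARS1 and HARS2, which encode the histidyl-tRNA synthetases of the cytosol and of mitochondria, are transcribed away from each other from start sites 85 bp apart on chromosome 5. A single peak, chr5:140691061-140692133, covered both starts with a fold of 56.6 and a −log10 q of 284. Its pileup was 193 fragments (167 to 222) over a control level of 2.43, and its summit lay 108 bp inside HARS2 and 193 bp upstream of HARS1. This peak counts once in each compartment and cannot be assigned to either gene. The gap between the genes, printed above, holds 3 matches to CCGGAA.

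YARS1, the cytosolic tyrosyl-tRNA synthetase gene, followed with a fold of 50.8 in the peak chr1:32816435-32818569. Its −log10 q was 218, and its pileup was 150 fragments (127 to 176) over a control level of 1.97. The summit lay 882 bp outside the gene, beyond its end at the higher coordinate, and the peak was within 1 kb of an end of S100PBP. YARS1, LARS1, VARS1, VARS2 and AARS2 had no entry in the promoter table, so the ends of these 5 genes are given by coordinate. Folds over 50 were found at 3 cytosolic genes and 1 mitochondrial gene, against 4.8% of all protein-coding genes.

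RARS1, for the cytosolic arginyl enzyme, had a fold of 41.0 with the summit 11 bp upstream of its start. KARS1, for the lysyl enzyme of both compartments, had a fold of 37.6 in a peak of 2418 bp, chr16:75647224-75649641, with a −log10 q of 192. Its pileup was 151 fragments (128 to 177) over a control level of 3.04. The summit was 625 bp upstream of KARS1. The peak was also within 1 kb of an end of TERF2IP, a telomere protein gene, and cannot be assigned to KARS1 alone. The nearest end of TERF2IP is 108 bp from that of KARS1. WARS1, for the cytosolic tryptophanyl enzyme, had a fold of 33.0 and a summit 26 bp downstream of its start, in a peak that also reached WDR25. This peak, chr14:100375588-100377184, had a −log10 q of 160.0 and 132 fragments (110 to 156.5) over a control level of 3.03. With these, 6 cytosolic genes had a fold over 30, as had 2 mitochondrial genes and 16.0% of all protein-coding genes.

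The cytosolic genes in the middle of the range had folds from 14.5 to 26.6. TARS1 (threonyl) had a fold of 26.6, FARSB 23.9, VARS1 (valyl) 23.8, MARS1 (methionyl) 19.2, CARS1 (cysteinyl) 19.0, FARSA 16.8, AARS1 (alanyl) 15.3, QARS1 (glutaminyl) 15.0 and SARS1 (seryl) 14.5. The subunit genes of the phenylalanyl enzyme had similar pileups, 61 fragments (46.7 to 78.4) at FARSA and 59 fragments (44.9 to 76.1) at FARSB, whose intervals overlapped. Of the genes below, NARS1 (asparaginyl) had a fold of 12.5 in the peak chr18:57621288-57622295, with a −log10 q of 48.0 and a summit 164 bp upstream of its start. Its pileup of 62 fragments (47.5 to 79.5) was close to that at FARSA, while its control level of 4.05 was the highest among the strongest peaks of the cytosolic genes.

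The lowest cytosolic folds belonged to genes for branched-chain amino acids. IARS1 (isoleucyl) had a fold of 5.36 in the peak chr9:92293508-92294072, with a −log10 q of 8.58 and a summit 230 bp upstream of its start. The pileup was 19 fragments (11.4 to 29.7) over a control level of 2.73. LARS1 (leucyl) had a fold of 4.67 in the peak chr5:146182572-146182903, with a −log10 q of 7.86, a pileup of 21 fragments (13.0 to 32.1) and a control level of 3.71. Its summit lay 132 bp beyond the higher-coordinate end of the gene. VARS1, the remaining branched-chain gene, was not low, with a pileup of 75 fragments (59.0 to 94.0) at its strongest peak.

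EPRS1 and AARS1 had no peak at their start. EPRS1, on chromosome 1 from 219968600 to 220046505, had no summit anywhere in its 77.9 kb, and the nearest peak was 26.7 kb from an end. From its start site the nearest peak was 47.6 kb away. AARS1, on chromosome 16 from 70252298 to 70289506, likewise had no summit in the gene. It counts among the genes with a peak only through its 3′ end, where the peak chr16:70251428-70252131 had a fold of 15.3, a −log10 q of 34.1 and a pileup of 34 fragments (23.6 to 47.5) over a control level of 1.29. That summit lay 334 bp beyond the 3′ end, and the peak was also within 1 kb of an end of EXOSC6, a gene of the RNA exosome. The start of AARS1 was 37.4 kb from the nearest peak. The weakest peaks of the whole list had 6 fragments at the summit. The number needed for a call depends on the control level, which is not known at these starts. No limit of detection can therefore be given for them.

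Among mitochondrial genes, MARS2 (methionyl) had the highest fold at a peak of its own, 36.3, in chr2:197705222-197706371 with a −log10 q of 164. The pileup was 129 fragments (108 to 153) over a control level of 2.58, and the summit lay 518 bp downstream of the start in a gene of 3027 bp. EARS2 (glutamyl) followed with a fold of 19.7 in chr16:23556917-23558456, with a −log10 q of 48.9, a pileup of 44 fragments (32.0 to 59.1) and a control level of 1.29. The summit lay at −410 bp from the EARS2 start and the peak reached UBFD1, whose nearest end is 352 bp from that of EARS2. YARS2 (tyrosyl) had a fold of 16.8 in chr12:32754893-32755511, with a −log10 q of 70.6, a pileup of 78 fragments (61.7 to 97.4) and a control level of 3.71. That peak did not reach the start but lay wholly inside the gene, 386 bp from its 5′ end, with the summit 748 bp downstream.

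The mitochondrial genes at the low end had peaks built on few fragments. PARS2 (prolyl) had the lowest fold of all synthetase genes, 3.69, in chr1:54764571-54764842, with a −log10 q of 2.68 and a summit 255 bp upstream of its start. Its pileup was 8 fragments (3.45 to 15.8) over a control level of 1.44. TARS2 (threonyl) had a fold of 4.32 in chr1:150487129-150487519, with a −log10 q of 5.39, a pileup of 15 fragments (8.39 to 24.7), a control level of 2.70 and a summit 146 bp upstream. LARS2 (leucyl) had a pair of narrow peaks near its start. The stronger, chr3:45389351-45389625, had a fold of 5.26, a −log10 q of 5.75 and a pileup of 11 fragments (5.49 to 19.7), with the summit 898 bp downstream of the start. The other, chr3:45388406-45388765, had a fold of 4.82, a pileup of 10 fragments (4.79 to 18.4) and a summit 26 bp downstream. The control level was 1.28 at both, and their pileup intervals overlapped almost wholly.

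The remaining mitochondrial genes lay between these. VARS2 (valyl) had a fold of 5.35, NARS2 (asparaginyl) 5.47, WARS2 (tryptophanyl) 6.67, SARS2 (seryl) 6.76, IARS2 (isoleucyl) 10.5, RARS2 (arginyl) 10.9, CARS2 (cysteinyl) 11.4 and AARS2 (alanyl) 16.3. The VARS2 peak, chr6:30914252-30914662, lay just inside the lower-coordinate end of the gene and within 1 kb of an end of GTF2H4, and had a −log10 q of 11.1 and a pileup of 26 fragments (17.0 to 38.1) over a control level of 4.05. The RARS2 peak, chr6:87589784-87590633, had a −log10 q of 25.2 and a pileup of 32 fragments (21.9 to 45.2) over a control level of 2.03. Its summit was 66 bp upstream of RARS2, and the peak also reached ORC3, a subunit gene of the origin recognition complex, whose nearest end is 148 bp from the RARS2 start.

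FARS2 and CARS2 showed how the choice of gene end decided a call. The outermost 5′ end of FARS2, a gene of 522 kb for the mitochondrial phenylalanyl enzyme, is 11073 bp upstream of the start site in the promoter table. No peak was within 1 kb of either outer end, and the nearest was 7546 bp away. At the start site of the promoter table, however, the peak chr6:5260106-5261713 had a fold of 15.2, a −log10 q of 69.0 and a pileup of 81 fragments (64.3 to 101) over a control level of 4.39, with its summit 20 bp downstream. The gene held 17 summits in all. For CARS2 the start sites are 7007 bp apart. Near the outer 5′ end a pair of peaks, chr13:110712235-110713249 and chr13:110713663-110716217, had folds of 11.4 and 11.4, −log10 q of 22.5 and 21.9, and pileups of 26 and 25 fragments over control levels of 1.37 and 1.28. Their summits were 1050 bp inside and 700 bp outside that end, and the former peak was within 1 kb of an end of the tumour suppressor gene ING1. At the inner start site the peak chr13:110705795-110706515 had a fold of 5.95 and a pileup of 15 fragments (8.39 to 24.7). With outer ends and table start sites together, 34 of the 35 genes had a peak, and EPRS1 alone had none.

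For the call of a peak, the window of 1 kb left no gene close to its limit. Among the genes with a peak, the peak nearest to an end covered that end at 26 genes and lay beside it at 7, at most 386 bp away (YARS2). The next genes, outside the window, were FARS2 at 7546 bp and EPRS1 at 26719 bp. A single peak was in the window at 27 genes and a pair of peaks at 6. The folds depended more on the window, as the strongest peaks of AARS2 and LARS2 lay 751 bp and 775 bp from the nearest end. With a window of 500 bp the mitochondrial median fold was 7.0.

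Peaks at both ends were found at 4 genes, MARS1, VARS1, AARS2 and SARS2, or 4 of 35, with a separate peak at each end. The share was 6.71% of all protein-coding genes, where 1 peak within 1 kb of both ends of a short gene also counted. At MARS1 the 5′ peak, chr12:57487848-57488612, had a fold of 19.2, a −log10 q of 58.7 and a pileup of 57 fragments (43.2 to 73.8) over a control level of 2.03. Its summit lay 44 bp upstream of the start, and the peak was within 1 kb of an end of ARHGAP9. The 3′ peak, chr12:57516770-57517469, had a fold of 15.4, a −log10 q of 38.5 and a pileup of 40 fragments (28.6 to 54.5) over a control level of 1.67. It began 118 bp beyond the gene, with its summit at 478 bp, and was within 1 kb of ends of LOC128125814 and of DDIT3, which encodes the stress factor CHOP. The MARS1 locus thus carried peaks beside a synthetase gene and a gene of the amino acid response.

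At VARS1 the stronger peak, chr6:31795315-31796297, was at the higher-coordinate end, with a fold of 23.8, a −log10 q of 83.3 and a control level of 2.19. The peak at the lower-coordinate end, chr6:31776938-31777503, had a fold of 5.94, a −log10 q of 12.0 and a pileup of 25 fragments (16.2 to 36.9) over a control level of 3.38. It was also within 1 kb of an end of VWA7. At AARS2 the stronger peak, chr6:44297070-44297980, lay 751 bp beyond the lower-coordinate end and also near DRC5. It had a fold of 16.3, a −log10 q of 52.2 and a pileup of 56 fragments (42.3 to 72.7) over a control level of 2.50, with a summit 945 bp from the gene. The peak that covered the higher-coordinate end, chr6:44313094-44313603, had a fold of 7.0, a −log10 q of 17.3 and a pileup of 32 fragments (21.9 to 45.2) over a control level of 3.71. At SARS2 the peak at the 3′ end, chr19:38915195-38915527, had the higher fold, 6.76 against 5.61, but the lower pileup, 18 fragments (10.7 to 28.4) against 33 fragments (22.7 to 46.3). Its −log10 q was 10.7 and its control level 1.81. The 5′ peak, chr19:38930471-38931468, had a −log10 q of 14.3, a summit 392 bp upstream of SARS2, and the highest control level of any peak at a synthetase gene, 5.06. It also reached MRPS12, a gene for a mitochondrial ribosomal protein whose nearest end is 181 bp from the SARS2 start.

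Enzymes for the same amino acid were then set side by side, as they carry out the same reaction in different compartments. Of 17 pairs, 12 had peaks of their own at both genes, 1 shared a peak (HARS1 and HARS2) and 4 involved EPRS1 or FARS2, which had none within 1 kb of an outer end. The last 4 are left out of the tally below. Of them, EARS2 and PARS2 had peaks where EPRS1 had none, with folds of 19.7 and 3.69. At its table start site FARS2 had a lower fold than FARSA and FARSB, 15.2 against 16.8 and 23.9. Its pileup of 81 fragments (64.3 to 101) overlapped in interval with the 61 at FARSA and the 59 at FARSB. Of the 12 pairs with peaks of their own, the cytosolic gene had the higher fold in 8, and in all 8 the exact Poisson intervals of the pileups did not overlap. The widest ratio was between TARS1 and TARS2. At TARS1, the peak chr5:33440255-33442071 had a fold of 26.6, a −log10 q of 83.9 and a pileup of 70 fragments (54.6 to 88.4) over a control level of 1.67, with the summit at −386 bp from the table start site, and its fold was 6.15 times that at TARS2. The ratio was 4.94 for WARS1 over WARS2, 4.45 for VARS1 over VARS2, 3.76 for RARS1 over RARS2, 3.03 for YARS1 over YARS2, 2.28 for NARS1 over NARS2, 2.15 for SARS1 over SARS2 and 1.67 for CARS1 over CARS2. At the SARS2 start itself the pileup of 33 fragments overlapped in its interval with the 43 fragments (31.1 to 57.9) at SARS1, so that pair is apart only by its strongest peaks.

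The mitochondrial gene had the higher fold in 4 pairs. Only for MARS2 over MARS1 were the pileup intervals apart, at 129 fragments (108 to 153) against 57 fragments (43.2 to 73.8). At IARS2, the peak chr1:220094062-220094677 had a fold of 10.5 with 23 fragments (14.6 to 34.5), which overlapped with the 19 fragments at IARS1. LARS2 had the higher fold but the lower pileup than LARS1, with overlapping intervals. The fourth pair was AARS2 and AARS1, where neither strongest peak covered a gene end, and their intervals overlapped too. These intervals cover counting error in 1 library, and differences between cultures were not measured.

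**Figure D3:**
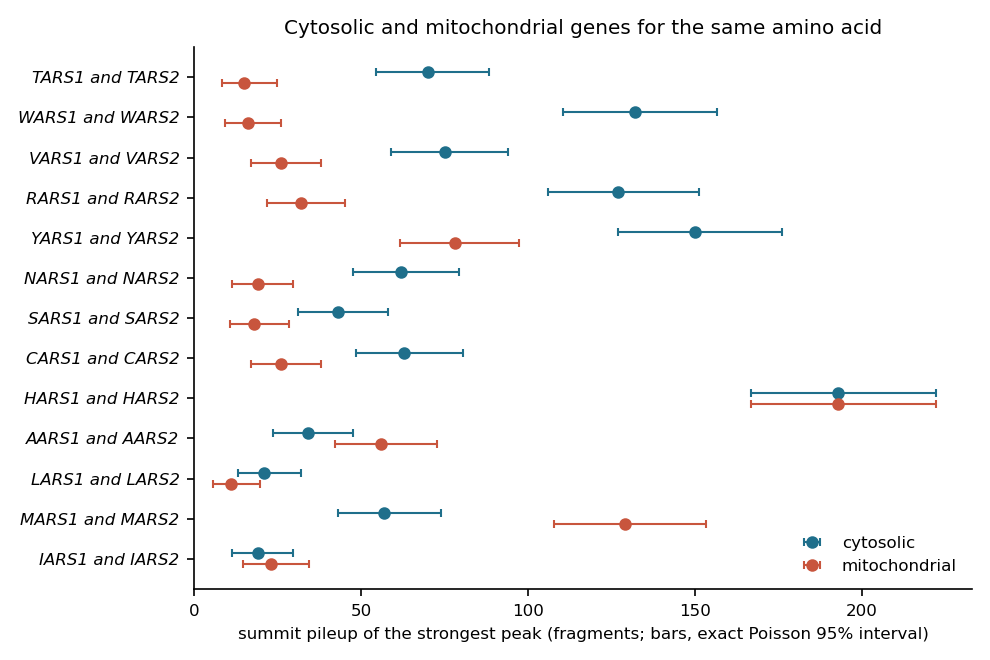
Summit pileup in fragments (horizontal axis) of the strongest peak at the cytosolic and the mitochondrial gene for the same amino acid, with exact Poisson 95% intervals as bars, ordered from the highest fold ratio (top). HARS1 and HARS2 share 1 peak, the cytosolic bar lies apart above the mitochondrial one in 8 pairs, and only for MARS1 and MARS2 does the mitochondrial bar lie apart above.

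The cytosolic genes could also be divided by what their enzymes are part of. The list holds 7 genes of the multi-synthetase complex, EPRS1, IARS1, LARS1, MARS1, QARS1, RARS1 and KARS1. Of these, 6 had a peak, with folds from 4.67 to 41.0 and a median of 17.1, and 4 had a fold over 10. These values, 57.1% over a fold of 10 and a median of 17.1, were near the 45.2% and 17.6 of all protein-coding genes. All 12 cytosolic genes outside the complex had a peak and a fold over 10, with a median of 23.9 (12.5 to 63.3). Among these, AARS1 counts only through the peak at its 3′ end, as it had no peak at its start. By peaks at either end, the only cytosolic genes with no peak or a fold of 10 or less, EPRS1, IARS1 and LARS1, were all in the complex. RARS1 and KARS1 of the same complex were among the highest, KARS1 by a peak shared with TERF2IP. By the structural classes of the catalytic domain, the cytosolic median was 19.2 over 9 class I genes with a peak and 23.9 over 9 class II genes. The mitochondrial median was 10.9 over 9 class I genes and 6.11 over 6 class II genes with a peak. The classes therefore did not stand in the same order in both compartments. EPRS1, which joins an enzyme of each class, was counted in class I. These divisions are descriptions with no test.

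The position of the summits was compared with the start sites of the promoter table. A peak within 1 kb of this start site was found at 28 of 30 synthetase genes, against 62.1% of all protein-coding genes in the table. Its fold was over 10 at 20 of 30, against 45.0%. The summit of the strongest such peak lay upstream of the start at 10 of 14 cytosolic genes and downstream at 9 of 14 mitochondrial genes, with medians of −39 bp and 94 bp. Over all protein-coding genes with a start site peak 60.9% of summits lay downstream, with a median of 75 bp. The distance without sign had a median of 168 bp at cytosolic, 249 bp at mitochondrial and 226 bp at all protein-coding genes. Summits within 100 bp of the start were found at 6 cytosolic and 3 mitochondrial genes, 9 of 28 in all against 27.7% over all protein-coding genes with a start site peak, so closeness to the start was near the background. At the 3′ end, 3 of the 30 genes had a peak, MARS1, AARS1 and SARS2, against 9.56% of protein-coding genes of known strand.

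**Figure D4:**
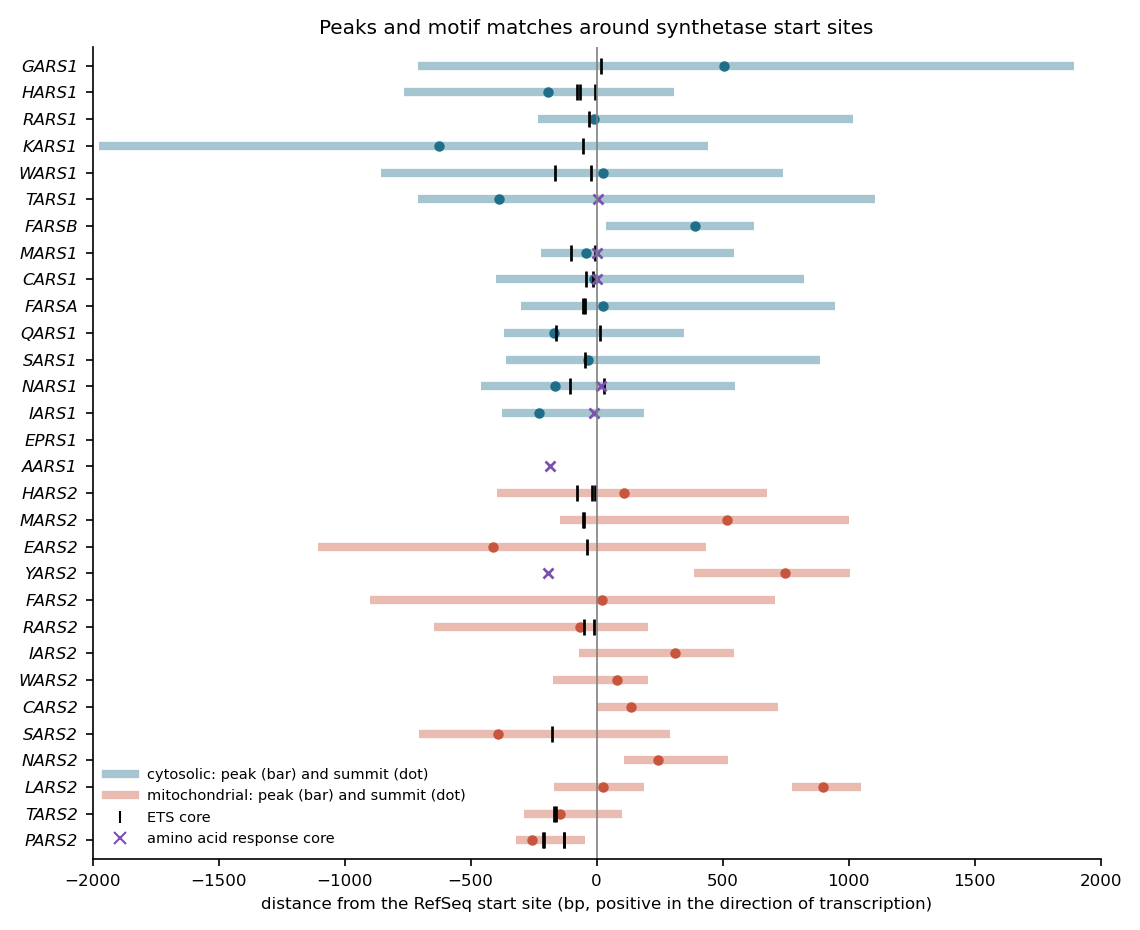
Peaks within 1 kb of the RefSeq start site of 30 synthetase genes, drawn by distance from the start in bp (horizontal axis, positive in the direction of transcription), with bars for the peak interval, dots for the summit, black ticks for CCGGAA and crosses for the amino acid response core. Genes are ordered by fold within each compartment, EPRS1 and AARS1 have no peak in the window, and in the genes with CCGGAA the ticks lie inside the bars. Motifs were searched only from 250 bp before to 50 bp after the start.

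Some peaks could not be assigned to a synthetase gene alone. The strongest peak was also within 1 kb of an end of another protein-coding gene at 6 of 18 cytosolic and 6 of 15 mitochondrial genes with a peak, 36.4% in all. This was near the 29.8% of all protein-coding genes with a peak. In the cytosolic group the median fold was 35.3 at shared and 17.9 at unshared peaks, and in the mitochondrial group 13.8 and 6.67. Over all protein-coding genes these medians were 18.6 and 17.1. When only peaks at no other protein-coding gene were used, 12 cytosolic and 11 mitochondrial genes retained a peak, with medians of 17.9 and 6.76.

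The ETS core CCGGAA, searched on both strands in the promoter window of 300 bp, was found in 18 of 30 synthetase promoters, or 60.0%. It was found in 22.9% of 15842 protein-coding promoters. The share was 11 of 16 among cytosolic and 7 of 14 among mitochondrial genes. HARS1 and HARS2 count separately in these and the following motif counts, although their matches are the same cores in the gap between them. The longer form CCGGAAGT, which contains CCGGAA, was found in 7 of 30 promoters, against 6.19%. The 4 bases GGAA, contained in both, were found in 29 of 30 promoters against 95.1%, so that the short core did not set the genes apart. The AP-1 site TGANTCA and the cyclic AMP response element TGACGTCA were found in 0 of 30, against 5.75% and 2.59%. A match is a description of letters and not a binding site.

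The amino acid response core TGATGNAA was found in 7 of 30 synthetase promoters, against 2.53% of protein-coding promoters. These were 6 of 16 cytosolic genes (AARS1, CARS1, IARS1, MARS1, NARS1 and TARS1) and 1 of 14 mitochondrial genes (YARS2). In MARS1, the ETS core from −10 to −5 and the amino acid response core from −4 to 4 adjoined without a gap, as the printed stretch shows, and the ChIP-seq summit lay 36.5 bp from the centre of that ETS core. In CARS1, a core from −16 to −11 lay 1.5 bp from the summit, with the amino acid response core from −2 to 6. AARS1, IARS1, TARS1 and YARS2 held the response core but no CCGGAA. They differed widely, as AARS1 had no peak at its start, IARS1 had one of the lowest folds, and TARS1 and YARS2 had folds of 26.6 and 16.8. The match in AARS1, from −187 to −180, lies before the printed stretch. Positions are counted from the RefSeq start site, with 1 as the first transcribed base and −1 as the base before it.

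**Figure D5:**
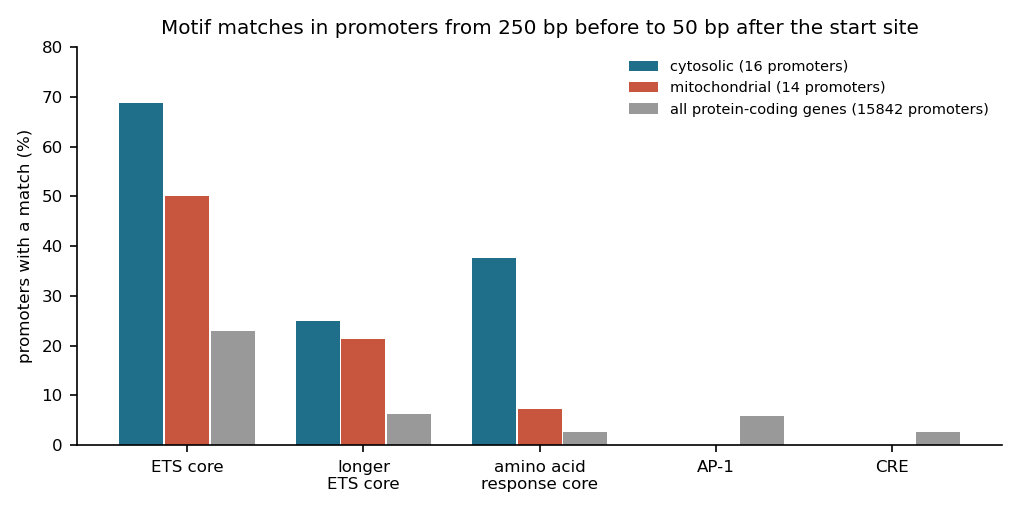
Percentage of promoters (vertical axis) with at least 1 match on either strand to each motif, in 16 cytosolic synthetase genes, 14 mitochondrial synthetase genes and 15842 protein-coding genes. The ETS core CCGGAA was found in 68.8%, 50% and 22.9%, the amino acid response core in 37.5%, 7.14% and 2.53%, and the AP-1 and CRE matches were at 0% in both synthetase groups.

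All 18 genes with CCGGAA had a peak within 1 kb of the start site, as had 10 of the 12 without it. Over all protein-coding genes of the table these shares were 84.1% and 55.6%. A start site peak with a fold over 10 was found at 15 of the 18 (83.3%) and 5 of the 12 (41.7%), against 65.2% and 39.0% over all protein-coding genes. In cytosolic genes with the core, all 11 had a fold over 10, from 12.5 to 63.3, while 3 of the 5 without it had a start site peak (IARS1, FARSB and TARS1, from 5.36 to 26.6). The median fold of these start site peaks was 19.2 with the core and 23.9 without it. In mitochondrial genes the 7 with the core ranged from 3.69 (PARS2) to 56.6 (HARS2), with a median of 10.9, and the 7 without it from 5.26 to 16.8, with a median of 6.67. The medians thus stood in opposite order in the compartments. PARS2, with the lowest fold of all, held the core at 2 places, each read on both strands. The core nearest to the summit lay inside the strongest start site peak at all 18 genes. Its distance from the summit had a median of 54 bp and was within 100 bp at 11 genes, with 10.5 bp at QARS1 and SARS1, 14.5 bp at RARS2 and TARS2, and 20.5 bp at RARS1. At GARS1, MARS2 and KARS1, by contrast, the summit was 488.5 bp, 567.5 bp and 572.5 bp away from the nearest core in the window, although these were among the strongest peaks. Sequence outside the promoter window was not used here. Cores were searched only in this window, and the peaks were chosen within 1 kb of the same start site. Overlap and closeness of cores and summits were therefore partly set by this choice. They were not compared with those at other protein-coding promoters.

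Genes that work with the synthetases were listed for comparison. Of 14 partners, among them the scaffold proteins of the multi-synthetase complex and the enzymes that finish or proofread charged tRNAs, 12 had a peak in the same window, with a median fold of 7.81, and 5 had a fold over 10. The scaffold genes had folds of 16.5 (AIMP1), 5.64 (AIMP2) and 10.2 (EEF1E1). The genes of the mitochondrial amidotransferase that makes glutaminyl-tRNA were low, with folds of 2.74 (QRSL1), 3.94 (GATB) and 7.80 (GATC). The highest was PTRH2, a peptidyl-tRNA hydrolase gene, at 54.8, and MTFMT and AARSD1 had no peak.

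In the amino acid response, 10 of 10 genes had a peak and 8 a fold over 10, with a median of 18.6. The peak counted here for DDIT3, with a fold of 15.4, is the 3′ peak of MARS1 described above. The sensor kinase gene EIF2AK4 (GCN2) had a fold of 30.7 and its coactivator gene GCN1 40.8. ATF4 itself had a fold of 12.3, and its targets ranged from 3.35 (CHAC1) through 13.1 (ASNS, asparagine synthetase) to 54.9 (TRIB3). Of 9 genes listed under elongation factors, 9 had a peak and 7 a fold over 10, with a median of 13.9. The mitochondrial ones had folds of 11.4 (TUFM), 8.44 (TSFM), 32.0 (GFM1) and 9.09 (GFM2). The cytosolic ones had folds of 23.5 (EEF1A1), 19.35 (EEF1D), 18.0 (EEF1B2), 13.9 (EEF2) and 11.5 (EEF1G). Against 62.1% of all protein-coding genes with a peak, all of these lists were above the background, and the partners were below the background of 45.2% at a fold over 10. The lists were chosen with earlier results of these data known, so their shares are descriptions and give no independent support.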

How the data were processed

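ChIP-seq was performed on 1 anti-Flag immunoprecipitate of A549 cells, with 1 input library and no replicate. Per the labels, the submitters' processing notes name Bowtie2 2.4.1, SAMtools, MACS2 2.2.7.1, deepTools 3.5.0 and the build hg38. Parameters and the handling of duplicate reads are not given in the sources used here. Each deposited peak carries a ratio (fold enrichment of the immunoprecipitate over control). The authors' −log10 p-values and −log10 q-values refer to its summit. The deposited score for display was left out. All peaks have a −log10 q of at least 1.30. No signal of the input itself was used here.

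Genes were taken from RefSeq (GRCh38.p14, 59679 genes, 20037 of them protein-coding), as their outer ends over all transcripts. Start sites, strand and promoter sequence came from RefSeq promoter windows of 300 bp, from 250 bp before to 50 bp after a start site. They matched 30 of the 35 synthetase genes and 15842 protein-coding genes. A gene had a peak if a peak interval lay within 1 kb of either outer end, and its strongest peak was that of the highest fold.

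The pileup and control level at each summit were solved from fold and −log10 p, with the fold as pileup plus 1 over control level plus 1 and p as a Poisson tail. Solved pileups of all 54389 peaks lay within 0.00914 of a whole number, with a median of 26 fragments and extremes of 6 and 7664. Exact Poisson 95% intervals cover counting error only, and PCR copies of a fragment are not independent. The functions were tested on simulated data.

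The synthetase genes were taken by name alone, but this family and the other gene lists were chosen with earlier results of these data known. All synthetase genes are named. Those with the 3 highest and 3 lowest folds of each compartment, no peak, peaks at both ends, a summit over 500 bp from an end, or a peak shared with another synthetase gene were described in full, with the amino acid pair that differed most. Genes were not treated as replicates and no test between gene lists was made. The alternatives covered windows, thresholds, peak choice, start sites and shared peaks. The scripts used scipy 1.17.1, pandas 2.3.3, matplotlib 3.10.9 and numpy 2.4.6 under Python 3.11.15.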

Additional observations from a re-analysis of the deposited data

How the results depend on the processing

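The library had no replicate, so leaving out a replicate was not possible, and no paired analysis was possible because each condition had 1 sample and no result came from a test. The count of 33 synthetase genes with a peak ranged from 23, when only peaks at no other protein-coding gene end were used, to 34, when start sites of the promoter table were added, an alternative chosen after seeing the data. It was 33 with windows of 500 bp and 3 kb and with summits in place of intervals. With a fold over 10 required, the mitochondrial count moved from 15 to 8 and the cytosolic count from 18 to 16. The number of promoters with an ETS core moved from 18 to 7 with CCGGAAGT and to 29 with GGAA, longer and shorter motifs by construction. The cytosolic median fold stayed between 17.9 and 23.8. The mitochondrial median fell from 10.5 to 7.0 with a window of 500 bp or with the peak nearest to an end, and to 6.76 without shared peaks, and was 8.59 at table start sites. It stayed below the cytosolic median under each of these. The few fragments behind the weakest peaks, 8 at PARS2 and 11 at LARS2, limit what can be said of their folds.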
